A study of Mus musculus with 12 samples.

Results

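Antibody RNA in the colon was followed through 5 immunoglobulin constant genes. They are heavy chain genes that set the class of an antibody (Igha for IgA, and Ighg1, Ighg2b and Ighg2c for IgG) and Igkc for the kappa light chain. The 5 genes were chosen by name, and all 5 were found among the 991 features listed for the series. A sixth constant gene, Ighg3, is also listed and is given beside them. The series holds 12 mouse colon RNA libraries that fall into 4 groups of 3. BXD_H mice received dextran sulfate sodium (DSS), a polysaccharide that injures the colon lining, together with Banxia Xiexin Decoction, a herbal preparation, at 15.2 g/kg per day. BXD_L mice received DSS with the decoction at 7.60 g/kg per day, and DSS mice received DSS alone. The DSS course was 3 rounds of 5 days at 2.5% in these 3 groups, each followed by 5 days of water. Control mice received ddH2O without DSS. Strain, sex, age and genotype are not stated in the labels. Nor do they say whether the libraries of a group are from different mice, and the p-values below then speak of library-to-library spread, part of which may be technical. Levels are in FPKM, a fragment count divided by annotated gene length and by library size.

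Each file lists a selection of features. The DSS and Control files list the same 912 features and hold all 5 genes, the BXD_H files list 95 and hold Ighg1 alone of the 5, and the BXD_L files list 8 and hold none, so BXD_L is not analysed here. Nearly all features of the DSS and Control list differ between those groups in these same libraries, so the rise of a listed gene is no independent evidence of its direction. Adjusted p-values from limma below are taken over listed features alone. Of 576 tested in DSS against Control, 571 had an unadjusted p under 0.05, and the BXD_H comparisons adjust over 17. These adjusted values hold for the selection and are not false discovery rates over all genes. Library totals recovered from the spacing of the FPKM of short genes ran from 12.4 to 19.2 in units of 1000000 fragments over the 9 libraries with enough short genes. The description text of Control replicate 3 and of DSS replicate 3 names another group, against their titles. Groups follow the titles. The colon label was checked against fixed markers: of 8 colonocyte markers, Car4 and Slc26a3 are listed, at a summed 109 to 457 FPKM in DSS libraries and 742 to 1086 FPKM in Control libraries. None of 5 fixed B cell markers is listed, and of 6 plasma cell markers Prdm1 is.

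As background, an antibody is built from paired heavy and light chains, and its class is decided by the heavy chain constant gene that a B cell joins to its variable region. Class switching cuts out the constant genes lying between the variable region and the chosen one. In the healthy gut, plasma cells beneath the epithelium make mainly IgA, which is exported into the lumen, whereas IgG binds Fc receptors on macrophages and neutrophils and fixes complement.

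The heavy chain constant genes lie in a row on chromosome 12 of mm10, on the minus strand, in the order of transcription Ighg3, Ighg1, Ighg2b, Ighg2c and Igha. Ighg1 (ENSMUSG00000076614) spans chr12:113325240-113330523, Ighg2b (ENSMUSG00000076613) chr12:113302965-113307933, Ighg2c (ENSMUSG00000076612) chr12:113285325-113288932 and Igha (ENSMUSG00000095079) chr12:113254830-113260236. Igkc (ENSMUSG00000076609) is 1 exon on the plus strand of chromosome 6, chr6:70726435-70726966. The IgG genes differ most visibly in the hinge, the flexible link between the antigen-binding arms and the Fc part, which is the second exon of each and carries the cysteines that tie the heavy chains to each other. The sequences are shown because the subclasses have to be told apart by stretches such as these. They were read from GENCODE M21 transcripts on GRCm38, 5′ to 3′ on the coding strand, with in-frame cysteine codons in capitals. Igha has no hinge exon of its own, so the first 60 bases of its second exon are given, and for Igkc the last 30 coding bases, which end in the cysteine that binds the heavy chain.
Ighg1 hinge, chr12:113329844-113329882: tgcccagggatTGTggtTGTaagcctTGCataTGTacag
Ighg2b hinge, chr12:113307261-113307326: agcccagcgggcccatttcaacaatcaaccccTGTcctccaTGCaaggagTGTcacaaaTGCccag
Ighg2c hinge, chr12:113288263-113288325: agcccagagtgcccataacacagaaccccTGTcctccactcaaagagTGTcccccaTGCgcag
Ighg3 hinge, chr12:113360529-113360576: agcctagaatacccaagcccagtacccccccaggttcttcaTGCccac
Igha start of exon 2, chr12:113259645-113259704: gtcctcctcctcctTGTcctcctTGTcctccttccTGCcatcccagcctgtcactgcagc
Igkc end of coding sequence, chr6:70726725-70726754: attgtcaagagcttcaacaggaatgagTGT
The hinge exons run from 39 bases in Ighg1 to 66 bases in Ighg2b, with 4 cysteine codons in Ighg1 and Ighg2b, 3 in Ighg2c and 1 in Ighg3. Along the secreted transcripts, 56 of 1062 windows of 50 bases of Ighg2c (5.27%) also occur in Ighg2b, and no other pair of these heavy chain genes shares a window of that length. No pair shares a window of 100 bases. The sources used here give neither the read length nor the handling of reads that match more than 1 gene, so part of the Ighg2b and Ighg2c values could be exchanged between them.

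All 5 genes were higher in DSS colon than in Control colon, with folds of means of 15.9 for Ighg2c, 6.00 for Ighg2b and 5.06 for Ighg1 beside 2.62 for Igkc and 2.38 for Igha. In limma's test on log2(FPKM + 1) all 5 rose, with adjusted p under 0.05 over all features tested, where 79.2% of the 576 tested features were called higher and 20% lower. All 5 also had every DSS library above every Control library, as did 78.6% of features tested, so neither count sets the genes apart from the list. By the size of the log2 change they ranked 10 (Ighg2c), 34 (Ighg2b), 68 (Ighg1), 125 (Igkc) and 143 (Igha) among the 576, whose median change was 0.96. Ranks and median depend on the added 1 FPKM, which lowers the change of features at low levels. With 0.1 FPKM added instead, the median was 1.24, beside 1.25 for Igha and 1.38 for Igkc. The IgG genes then changed by 2.26 (Ighg1), 2.63 (Ighg2b) and 3.88 (Ighg2c). All 5 had at least 1 FPKM in each of the 6 libraries, so none passed the low-value filter through DSS alone. Taking the median listed feature of each library as the zero point lowered the change of all 5, so that 3 of the 5 genes passed the threshold, all of them IgG genes. Igha then changed by 0.60 and Igkc by 0.73 (limma adjusted p = 0.145 and 0.0593). With groups taken from the conflicting description text none of the 5 passed the threshold, and without the 2 libraries concerned all 5 did. In bulk tissue, more plasma cells and more antibody RNA in each cell cannot be told apart.

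**Figure D1:**
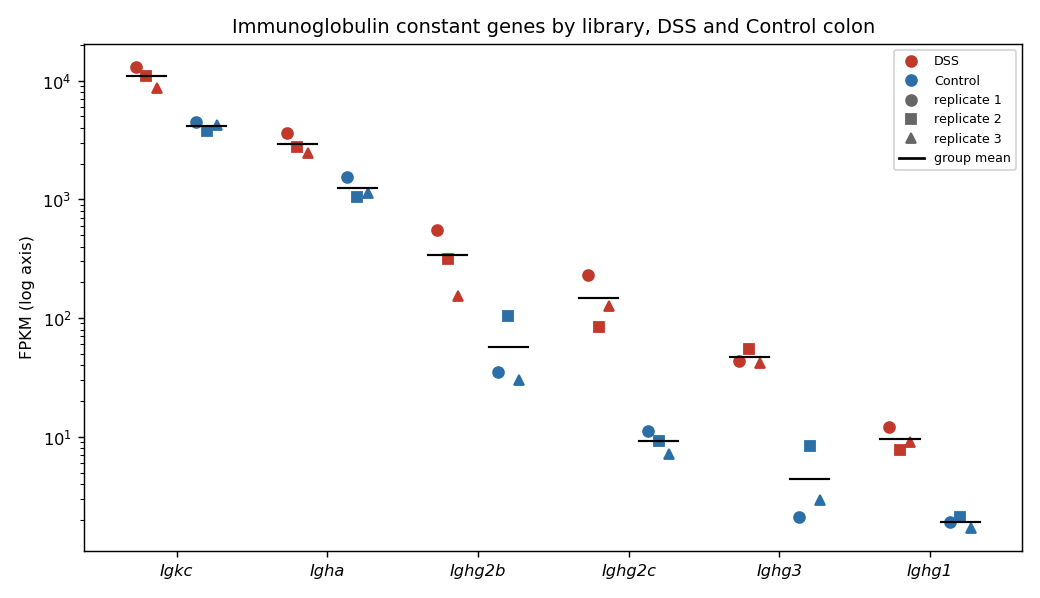
FPKM on a log axis of 6 immunoglobulin constant genes in each DSS library (red, left) and Control library (blue, right), with marker shapes for replicates and black lines for group means (n = 3). All DSS points of a gene lie above its Control points, and the gap is widest for Ighg2c (84.2 to 231 against 7.20 to 11.3 FPKM) and narrow for Ighg2b, where Control replicate 2 stands at 104.7 FPKM.

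Igha, the heavy chain of mucosal IgA, stood at 3613, 2776 and 2445 FPKM in DSS replicates 1, 2 and 3 and at 1537, 1041 and 1140 FPKM in Control replicates 1, 2 and 3. The groups did not overlap, and the lowest DSS library exceeded the highest Control library 1.59-fold. The mean was 2945 ± 602 FPKM in DSS and 1239 ± 262 FPKM in Control (SD, n = 3 each), 2.38-fold, and on the log2 scale it differed by 1.25 (SE 0.31, adjusted p = 0.00589 by limma). Taken over the annotated exons, Igha fragments made up 0.652 to 0.964% of all fragments in DSS libraries and 0.278 to 0.410% in Control libraries.

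Igkc, the kappa light chain constant region that pairs with every heavy chain class, stood at 13008, 10988 and 8729 FPKM in DSS replicates 1 to 3 and at 4500, 3772 and 4200 FPKM in Control replicates 1 to 3. Every DSS library was at least 1.94 times the highest Control library. The mean was 10909 ± 2141 FPKM in DSS and 4157 ± 366 FPKM in Control, 2.62-fold, and on the log2 scale it differed by 1.38 (SE 0.27, adjusted p = 0.00365 by limma). Taken over its annotated exon, its share of all fragments was 0.464 to 0.692% in DSS libraries and 0.201 to 0.239% in Control libraries.

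Ighg2c, the heavy chain of a complement-fixing IgG, changed most of the 5. It stood at 231, 84.2 and 126 FPKM in DSS replicates 1 to 3 and at 11.3, 9.24 and 7.20 FPKM in Control replicates 1 to 3. The lowest DSS library was 7.47 times the highest Control library. The mean was 147 ± 75.9 FPKM in DSS and 9.24 ± 2.04 FPKM in Control, 15.9-fold, and on the log2 scale it differed by 3.75 (SE 0.42, adjusted p = 0.000729 by limma). The reference genome carries Ighg2c, while some inbred strains carry the related Ighg2a in its place, and the strain used is not stated.

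Ighg2b, the heavy chain of another complement-fixing IgG, had the highest FPKM of the IgG genes in every library and varied widely within groups, with a coefficient of variation of 59.1% in DSS and 73.8% in Control. It stood at 551, 312 and 153 FPKM in DSS replicates 1 to 3 and at 35.2, 104.7 and 29.8 FPKM in Control replicates 1 to 3. Control replicate 2 stood well above the other Control libraries, and the lowest DSS library, replicate 3, was 1.47 times Control replicate 2. The mean was 339.0 ± 200.3 FPKM in DSS and 56.5 ± 41.8 FPKM in Control, 6.00-fold, and on the log2 scale it differed by 2.61 (SE 0.60, adjusted p = 0.00499 by limma). The change was 3.16 without Control replicate 2 and 2.17 without DSS replicate 1, and remained past the threshold in both cases (limma adjusted p = 0.00941 and 0.00958).

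Ighg1, the heavy chain of the IgG typical of responses driven by interleukin 4, was the lowest of the 5. It stood at 12.1, 7.79 and 9.08 FPKM in DSS replicates 1 to 3 and at 1.90, 2.11 and 1.71 FPKM in Control replicates 1 to 3. The Control values rest on about 71 to 91 fragments a library and the DSS values on about 336 to 483. The mean was 9.65 ± 2.21 FPKM in DSS and 1.91 ± 0.2001 FPKM in Control, 5.06-fold, and the log2 change was 1.86 (SE 0.43, limma adjusted p = 0.00434) in log2(FPKM + 1), where the added 1 makes the change of so low a gene look smaller than its fold.

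Ighg3, the fourth IgG gene, stood at 43.7, 55.1 and 41.9 FPKM in DSS replicates 1 to 3 and at 2.13, 8.29 and 2.92 FPKM in Control replicates 1 to 3. The lowest DSS library was 5.05 times the highest Control library, which again was Control replicate 2. The log2 change was 3.29 (SE 0.42, limma adjusted p = 0.00112), second to Ighg2c among the 6 constant genes. Along the chromosome the fold of means was 10.5 for Ighg3, 5.06 for Ighg1, 6.00 for Ighg2b, 15.9 for Ighg2c and 2.38 for Igha, so it followed no order of position.

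DSS replicate 1 was the highest DSS library for all 5 genes, and DSS replicate 2 was the highest for Ighg3. Of the fixed T cell markers, 2 of 5 are listed, Trac and Cd4, and both were also highest in DSS replicate 1, with a sum of 13.3 to 19.5 FPKM in DSS libraries and 6.30 to 7.98 FPKM in Control libraries. The colonocyte markers Car4 and Slc26a3 fell in DSS (log2 changes −1.96 and −1.55, limma adjusted p = 0.00947 and 0.00873). The part of these marker shifts in the immunoglobulin changes was not tested.

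In FPKM, with the length of all annotated exons, the order of levels was Igkc, Igha, Ighg2b, Ighg2c, Ighg3 and Ighg1, from high to low, in each of the 6 libraries. Neighbours in that order lay close in places. Within groups, Ighg2b and Ighg2c overlapped in DSS (153 to 551 and 84.2 to 231 FPKM) but not in Control, and Ighg2c and Ighg3 overlapped in Control (7.20 to 11.3 and 2.13 to 8.29 FPKM) but not in DSS. Such comparisons between genes depend on the annotated length. The exons of Igha, Ighg1, Ighg2b and Ighg3 sum to between 2512 and 2678 bases because they include exons outside the secreted transcripts, which have 1076 to 1114 bases, while Ighg2c has 1326 bases in all. Per length of the secreted transcripts the order of Ighg2c and Ighg3 turned round in replicate 2 of both groups. There Ighg3 formed 1.65% and Ighg2c 1.30% of the summed heavy chain level in DSS replicate 2, and Ighg3 0.684% and Ighg2c 0.392% in Control replicate 2. Fragments, estimated as FPKM times annotated exon length and library total, were more for Igha than for Igkc in all 6 libraries. That order rests on the exon lengths taken here, 2668 bases for Igha and 532 for Igkc, since no fragment counts are given. Ratios of a given pair between groups are not affected by this.

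The class balance asks whether the IgG genes gained on Igha and Igkc within the same library. Both parts of such a ratio come from 1 library, so library total and the composition of the rest of the RNA cancel. Ighg1, Ighg2b and Ighg2c together amounted to 21.999, 14.6 and 11.8% of the Igha FPKM in DSS replicates 1 to 3, and to 3.15, 11.1 and 3.39% in Control replicates 1 to 3. The DSS libraries all lay above the Control libraries, but DSS replicate 3 and Control replicate 2 were only 0.08 apart on the log2 scale. The mean log2 ratio was higher by 1.66 in DSS (SE 0.65), 3.17-fold, with an exact two-sided permutation p of 0.1, the smallest that 3 libraries against 3 can give (0.171 adjusted over 12 ratios). With Ighg3 added the difference was 1.73. With lengths of the secreted transcripts in place of all exons it was 1.54 and the groups overlapped (exact permutation p = 0.2). Without Control replicate 2 it was 2.25, without Control replicate 1 it was 1.34 and without Control replicate 3 it was 1.39. With groups from the conflicting description text it was 0.80 (exact permutation p = 0.5), and for Ighg2c relative to Igha it was 1.52 (exact permutation p = 0.4). Against Igkc the difference of the IgG sum was 1.54 with all libraries. It was 2.08 without Control replicate 2, 1.32 without Control replicate 1 and 1.21 without Control replicate 3.

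**Figure D2:**
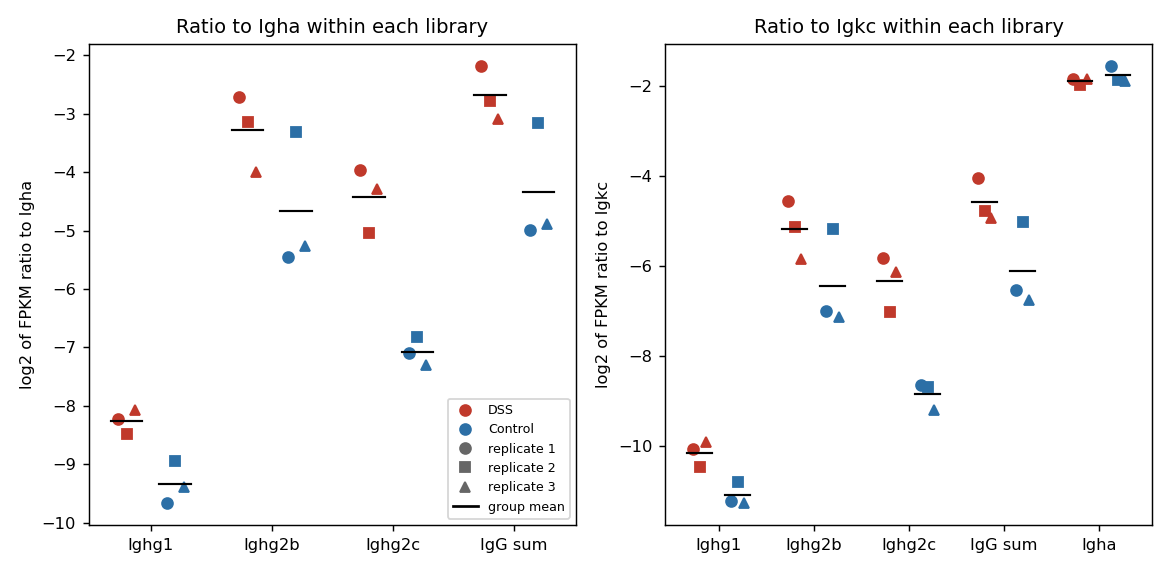
Log2 of the FPKM ratio to Igha (left panel) and to Igkc (right panel) in each DSS library (red) and Control library (blue), with black lines for group means (n = 3) and marker shapes for replicates. IgG sum is Ighg1 + Ighg2b + Ighg2c. The Ighg2c ratios separate by at least 1.61 on the log2 scale, the Ighg2b ratios overlap through Control replicate 2, and Igha against Igkc overlaps.

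Ighg2c had the largest difference of the 3 IgG genes in its ratio to Igha. It amounted to 6.40, 3.03 and 5.13% of Igha FPKM in DSS replicates 1 to 3 and to 0.733, 0.888 and 0.631% in Control replicates 1 to 3. The log2 difference was 2.64 (SE 0.35), 6.24-fold, with every pairing of a DSS and a Control library between 1.77 and 3.34 (exact permutation p = 0.1, adjusted 0.171). Against Igkc the difference was 2.51 (SE 0.41), again without overlap.

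Ighg1 gained less. It amounted to 0.335, 0.281 and 0.371% of Igha FPKM in DSS replicates 1 to 3 and to 0.124, 0.203 and 0.150% in Control replicates 1 to 3. These values did not overlap, with a log2 difference of 1.07 (SE 0.24), 2.10-fold, against Igha and 0.94 (SE 0.22) against Igkc (exact permutation p = 0.1 for each). With 1 FPKM added to both parts, the differences of this low gene were 0.61 and 0.48. The groups then overlapped for the ratio to Igkc (exact permutation p = 0.2). Of the other 575 features tested, 10.6% had a ratio to Igha that was higher in every DSS library than in every Control library, and 9.22% had such a ratio to Igkc. With nothing added to the FPKM, Ighg1 and Ighg2c were in that minority for both ratios, and Ighg2b for neither.

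Ighg2b amounted to 15.3, 11.2 and 6.27% of Igha FPKM in DSS replicates 1 to 3 and to 2.29, 10.1 and 2.61% in Control replicates 1 to 3. DSS replicate 3 thus lay below Control replicate 2. The log2 difference was 1.39 (SE 0.78) against Igha and 1.26 (SE 0.73) against Igkc, with overlapping groups for both ratios (exact permutation p = 0.2 for each, adjusted 0.240). Without Control replicate 2 the differences were 2.07 and 1.89, and the groups no longer overlapped (exact permutation p = 0.1, the smallest possible for 3 against 2). Without Control replicate 1 they were 1.00 and 0.98, and without Control replicate 3 they were 1.10 and 0.91 (exact permutation p = 0.4 for each).

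Igha and Igkc moved nearly in step. Igha was 27.8, 25.3 and 28.0% of Igkc FPKM in DSS replicates 1 to 3 and 34.1, 27.6 and 27.1% in Control replicates 1 to 3. The groups overlapped, with a log2 difference of −0.13 (SE 0.12, exact permutation p = 0.6) and single pairings between −0.43 and 0.05. That range holds small changes of either sign and none as large as the mean IgG differences to Igha or Igkc, the smallest being 0.94. Single pairings of the IgG ratios reached lower, down to 0.34 for Ighg1 to Igkc and 0.08 for the IgG sum to Igha. For Ighg2b to Igha they reached −0.68, so single pairings do not set the 2 kinds of ratio fully apart.

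**Figure D3:**
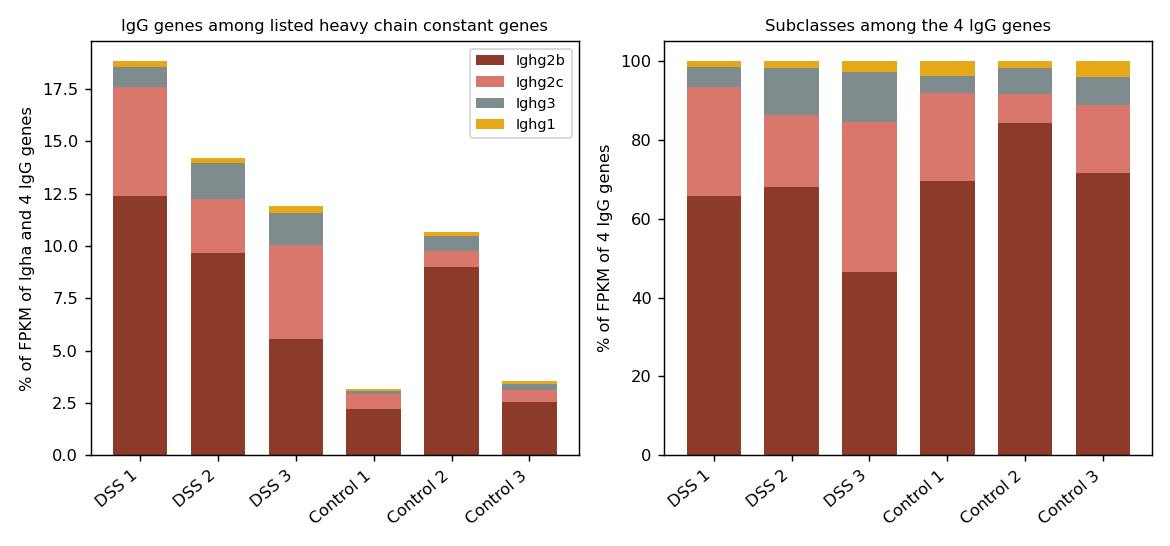
Left, the 4 IgG genes as a percentage of the summed FPKM of Igha and the 4 IgG genes in each library, with the rest being Igha; right, each subclass as a percentage of the 4 IgG genes. DSS libraries are on the left of each panel. Percentages are of FPKM, in which the short annotated length of Ighg2c raises its share. IgG reaches 11.9 to 18.8% in DSS libraries and 3.18 to 10.7% in Control libraries, and Ighg2b is the largest subclass in every library.

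Among the listed heavy chain constant genes, Ighg3 included, IgG made up 18.8, 14.2 and 11.9% of the FPKM in DSS replicates 1 to 3 and 3.18, 10.7 and 3.52% in Control replicates 1 to 3. Igha remained the main class in all 6 libraries, at 81.2 to 88.1% in DSS and 89.3 to 96.8% in Control. Per length of the secreted transcripts the IgG share was 16.5, 12.9 and 9.71% in DSS and 2.80, 10.2 and 3.19% in Control, so that Control replicate 2 lay above DSS replicate 3. Ighm, the gene of IgM, and the lambda constant genes are not analysed here, so these are shares of the 5 heavy chain genes and not of all antibody RNA.

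Within IgG the mix differed between libraries. Ighg2b formed 65.8, 68.0 and 46.5% of the IgG FPKM in DSS replicates 1 to 3 and 69.7, 84.2 and 71.6% in Control replicates 1 to 3, a complete but narrow separation. Ighg2c formed 27.6, 18.3 and 38.1% in DSS and 22.3, 7.43 and 17.3% in Control, which overlap. Ighg1 formed 1.44 to 2.75% in DSS and 1.70 to 4.11% in Control. Ighg2c relative to Ighg1 was 19.1, 10.8 and 13.8 in DSS replicates 1 to 3 and 5.93, 4.38 and 4.21 in Control replicates 1 to 3, without overlap (log2 difference 1.57, SE 0.29, exact permutation p = 0.1). Ighg2c relative to Ighg2b differed by 1.25 (SE 0.73) and Ighg1 relative to Ighg2b by −0.32 (SE 0.66), both with overlapping groups (exact permutation p = 0.2 and 1.0). Of the 12 ratios, which share their genes and libraries, 7 separated the groups, and no ratio could pass the threshold with 3 libraries a group. Beside this count, 10.6% of the other 575 features tested were separated upward in their ratio to Igha and 9.22% in their ratio to Igkc. No such share was computed for the IgG sums or for ratios between IgG genes.

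Ighg1 is the gene of the set that is also listed for high-dose mice, where its level was higher still. It stood at 111.5, 27.2 and 41.1 FPKM in BXD_H replicates 1 to 3, against 12.1, 7.79 and 9.08 FPKM in DSS libraries and 1.90, 2.11 and 1.71 FPKM in Control libraries. The lowest BXD_H library was 2.25 times the highest DSS library, and BXD_H replicate 1 stood far above the other BXD_H libraries. The mean was 59.9 ± 45.2 FPKM in BXD_H and 9.65 ± 2.21 FPKM in DSS, 6.21-fold, and on the log2 scale it differed by 2.28 (SE 0.43, adjusted p = 0.00233 by limma). Against Control the log2 change was 4.14 (SE 0.43, limma adjusted p = 1.95e-05), or 31.4-fold. Both SE rest on a spread shared by BXD_H, DSS and Control. The coefficient of variation of Ighg1 was 75.4% in BXD_H, 22.9% in DSS and 10.5% in Control. Fitted on the compared groups alone, the SE was 0.70 against DSS and 0.59 against Control (limma adjusted p = 0.0195 and 0.00199). Both comparisons use the same BXD_H libraries, and DSS libraries serve in the first as they do in the comparison with Control. Of 17 features tested in both lists, 70.6% were called higher in BXD_H than in DSS, 23.5% were called lower and 70.6% had every BXD_H library above every DSS library. Against Control, 70.6% of 17 were called higher, 0% lower, and 76.5% had every BXD_H library above every Control library. The BXD_H list is itself a selection, so Ighg1 stands with most of the features it can be compared with. Without BXD_H replicate 1 the change against DSS was 1.71 (limma adjusted p = 0.000804). The other 4 genes are not listed for BXD_H, so no ratio of Ighg1 to Igha or Igkc can be given there, and whether Igha moved as well is not analysed here.

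**Figure D4:**
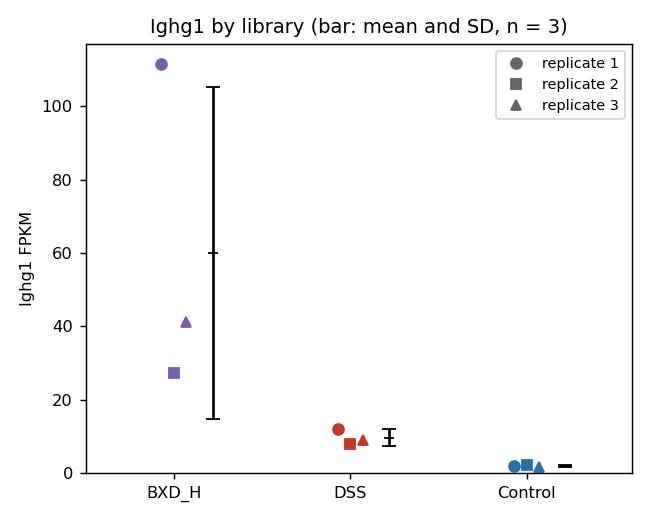
Ighg1 FPKM on a linear axis in each library of BXD_H, DSS and Control, with the mean and SD (n = 3) beside the points. The BXD_H libraries lie at 27.2 to 111.5 FPKM, above the DSS libraries at 7.79 to 12.1 and the Control libraries at 1.71 to 2.11.

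Of 78 other genes of antibody production, class switching, transport and antibody reception, 7 are listed for DSS and Control. Prdm1, the transcription factor that drives plasma cell differentiation and is also made in T cells, rose with 5.84 ± 1.28 FPKM in DSS and 1.91 ± 0.473 FPKM in Control (log2 change 1.23, limma adjusted p = 0.00356). It was lowest of the DSS libraries in replicate 1, where the 5 constant genes were highest. Icos, a T cell receptor needed for help to B cells, rose with 2.72 ± 0.425 FPKM in DSS and 0.690 ± 0.411 FPKM in Control (log2 change 1.16, limma adjusted p = 0.00343). The IgG receptors Fcgr1 (log2 change 1.02) and Fcgr4 (1.03) and their signalling chain Fcer1g (1.15) rose, the last with 26.1 ± 4.69 FPKM in DSS and 11.2 ± 1.50 FPKM in Control (limma adjusted p = 0.00328, 0.00592 and 0.00566 for Fcgr1, Fcgr4 and Fcer1g). Fcrl5, a B cell receptor for IgG, stood at 0.680 ± 0.0173 FPKM in DSS and 0.203 ± 0.0929 FPKM in Control, below the low-value filter. Of 3 receptor genes tested, 3 rose, where 79.2% of all features tested did, with a median log2 change of 1.03 beside 0.96 over all features.

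The genes with the most similar pattern were sought among 516 tested features that are not immunoglobulin segments, by the root mean square difference of log2(FPKM + 1) profiles over the 6 libraries, each centred on its mean. Closest to Igkc were Bcl2a1a (0.10) and Wfdc17 (0.13), to Igha Ccl22 (0.13) and Fcgr4 (0.15), and to Ighg1 Gpnmb (0.16) and Clec7a (0.20). Clec7a, a receptor for fungal glucans on myeloid cells, stood at 15.7, 9.94 and 11.1 FPKM in DSS replicates 1 to 3 and at 2.77, 4.62 and 2.85 FPKM in Control replicates 1 to 3, with the same order of libraries as Ighg1 within DSS. Nothing lay near Ighg2b, whose closest were Egr1 and Mmp3 (0.73 each). For Ighg2c they were Khdc1a (0.34) and Plet1 (0.74). With 6 libraries in 2 groups, this measure counts a like size of the DSS change as likeness. The added 1 FPKM lowers the change of low genes, so closeness is not likeness in fold. Bcl2a1a stood at 2.69, 2.57 and 1.34 FPKM in DSS replicates 1 to 3 and at 0.42, 0.15 and 0.15 in Control replicates 1 to 3. Ccl22 stood at 3.18, 2.59 and 2.27 FPKM in DSS and at 1.14, 0.62 and 0.42 in Control. Khdc1a was at 0.42 to 0.56 FPKM in Control.

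The variable segments, joined to these constant genes in the same transcripts, were listed as 26 Ighv and 26 Igkv segments. The Ighv segments summed to 2573 to 4117 FPKM in DSS and 328 to 699 FPKM in Control, which is 0.925 to 1.05 times the heavy chain constant sum in DSS and 0.278 to 0.465 times in Control. The sum covers listed segments alone, and few listed features did not differ, so it gives no account of all segments.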

How the data were processed

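Colon total RNA, extracted with TRIzol, went into libraries made with a NEBNext Ultra kit from 1 µg, per the labels' protocols. The authors deposited 1 file per library with gene-level FPKM, and the submitters' processing notes name bcl2fastq, FastQC, fastp and mm10. The aligner, the counting program, its strand setting, the annotation and the rule by which features were listed are not stated there. Antisense or overlapping reads therefore cannot be told apart from those of the genes.

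From the deposited FPKM, log2(FPKM + 1) was tested in limma 3.58.1 (R 4.3.3) with 1 mean per group. Each feature was fitted on the libraries that list it. Igha, Ighg2b, Ighg2c and Igkc were thus fitted on DSS and Control libraries, and Ighg1 on these and the BXD_H libraries. A trended prior was estimated across features of all 12 libraries. Benjamini-Hochberg adjustment ran over features of at least 1 FPKM in at least 3 libraries. FPKM cannot be used in a count model. Ratios were tested by exact two-sided permutation over libraries, adjusted over 12 ratios. Library totals were estimated from all genes with under 1200 exon bases and a non-zero FPKM. Each candidate total was scored by the share of these genes that came out as whole fragments within FPKM rounding, capped at 0.2. The smallest total with a score close to the best was taken. At the totals taken, 76.5 to 94.1% of the genes came out whole, which makes the totals estimates. Names and lengths came from GENCODE M21, which matched 981 of 991 identifiers. The scripts were tested on simulated data. The genes, the lists and the rules were chosen with earlier results of these data known. Named beside the 5 genes are the listed genes of the fixed lists and the 2 features most like each gene in pattern. Fixed marker lists for goblet cells, smooth muscle, B cells and lymphoid stroma had no listed gene. Alternatives were other pseudocounts, no filter, a fit of the compared groups alone, an untrended prior, centring on the median, leaving out each library, the description-text groups and a replicate block.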

Additional observations from a re-analysis of the deposited data

How the results depend on the processing

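Of 118 values from limma recomputed under an alternative, 109 kept their direction and side of the threshold, 7 lost the call, 2 counts moved and none reversed. The 123 recomputed ratio differences kept their sign, but their exact p could not pass the threshold in any setting, so they say nothing of a call. Centring each library on the median listed feature, which moved the median change of all features to 0.31 from 0.96, left 3 of the 5 genes past the threshold and gave 113 features higher and 117 lower of 572, against 456 and 115 of 576. Igha then changed by 0.60 and Igkc by 0.73 (limma adjusted p = 0.145 and 0.0593). Most listed features are higher in DSS, so this centring removes part of any rise by construction. With groups from the description text, 0 of the 5 genes passed limma's adjusted threshold, with 4 features higher and 4 lower and 54 at an unadjusted p under 0.05. The changes were then 0.83 for Igha, 1.18 for Ighg1, 1.50 for Ighg2b, 2.28 for Ighg2c and 1.03 for Igkc, and 5 features were higher and 1 lower in BXD_H against DSS. The ratio differences to Igha were then 0.80 for the IgG sum, 0.61 for Ighg1, 0.67 for Ighg2b and 1.52 for Ighg2c (exact permutation p = 0.5, 0.3, 0.5 and 0.4), and those to Igkc were 0.60, 0.41, 0.47 and 1.31 (exact permutation p = 0.6, 0.5, 0.7 and 0.4). Without the 2 libraries whose text conflicts, all 5 genes passed, with 349 features higher and 60 lower of 476.

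Leaving out 1 library at a time kept all 5 genes past the threshold (5 in each fit), where 73.7 to 78.8% of all features were called higher, with changes of 1.09 to 1.41 for Igha, 1.70 to 1.98 for Ighg1, 2.17 to 3.16 for Ighg2b, 3.36 to 4.09 for Ighg2c and 1.24 to 1.53 for Igkc. Ighg1 in BXD_H ranged from 1.71 to 2.71 against DSS and from 3.57 to 4.57 against Control. The difference of the IgG sum relative to Igha ranged from 1.34 to 2.25 and that of Ighg2b relative to Igha from 1.00 to 2.07. No clear pairing by replicate number was seen, with correlations of same-numbered deviations of −0.05, 0.02 and 0.08 in DSS against Control. Only DSS replicate 3 correlated most with the Control library of its own number. With 3 libraries a group, such values cannot exclude a pairing. Under a replicate block all 5 genes still passed and Ighg1 in BXD_H against DSS had a limma adjusted p of 0.0408, with 6 features higher and 4 lower of 16 against 12 and 4 of 17. The exact paired permutation test of the ratios cannot go below p = 0.25. Centring was not run for BXD_H, whose list shares few features with the others. Control Ighg1, at 71 to 91 fragments a library, is limited most by depth.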

Other observations

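Of the immunoglobulin segments, 5 variable ones besides Ighg1 are listed for both BXD_H and DSS, and they moved in both directions. Igkv5-43 averaged 424 ± 251 FPKM in BXD_H and 77.9 ± 23.3 FPKM in DSS (log2 change 2.31, limma adjusted p = 0.00291), and another kappa segment 62.8 ± 20.9 FPKM in BXD_H and 30.3 ± 3.18 FPKM in DSS (0.97, limma adjusted p = 0.0115). Ighv7-4 averaged 199.7 ± 219 FPKM in BXD_H, with single libraries from 20.6 to 444 FPKM, and 14.3 ± 3.51 FPKM in DSS (2.86, limma adjusted p = 0.00840). Igkv8-28 fell, with 18.5 ± 5.68 FPKM in BXD_H and 107.8 ± 64.6 FPKM in DSS (−2.37, limma adjusted p = 0.00233). Igkv14-126 fell as well, with 6.51 ± 3.92 FPKM in BXD_H and 69.0 ± 48.1 FPKM in DSS (−2.97, limma adjusted p = 0.00484). Means and SD are over 3 libraries a group, and these segments were picked for description after their values were seen. Ighg1 rose in BXD_H while these kappa segments moved both ways, and Igkc itself is not listed there.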
